A study of Homo sapiens with 4 samples.

Results

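The translation initiation factors (eIFs) and the kinases that phosphorylate eIF2 were compared between HCT116 cells grown as spheroids and HCT116 cells grown as monolayers. A gene was a member if its symbol started with EIF and a digit and the array carried a probe set with that symbol alone. Symbols containing -AS, or ending in P and a digit, which mark antisense entries and pseudogenes, were left out. Where a gene had several probe sets, the one brightest on average over the 4 arrays stood for it. This gave 49 genes, measured by 121 probe sets, of 19775 genes in the series. The mean signal of 45 members was above 300 units, and these were tested together with all other such genes, 8721 in total. HCT116 is an established human colon carcinoma line. Both groups were untreated and are labelled by growth form, as attached monolayers or as multicellular spheroids formed in non-adhesive wells, with 2 independent cultures of each and 1 array per culture. With 2 cultures per group, p-values rest on the spread between these cultures and on no others. The spread used for each gene was drawn largely from that of all tested genes, and less from its own arrays. Spheroids of this line hold proliferating cells at the rim and quiescent cells in the core, and the RNA of a whole culture was measured, so fewer cells expressing a gene and less RNA per cell cannot be told apart.

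Initiation brings the ribosome to the start codon of an mRNA. The factor eIF2 carries the initiator methionyl-tRNA to the small ribosomal subunit in its GTP form, and the exchange factor eIF2B recharges it after each round. The kinases of the integrated stress response, HRI (EIF2AK1), PKR (EIF2AK2), PERK (EIF2AK3) and GCN2 (EIF2AK4), phosphorylate the α subunit of eIF2, which turns eIF2 into an inhibitor of eIF2B and slows initiation. The cap-binding protein eIF4E, the scaffold eIF4G and the helicase eIF4A recruit the mRNA, eIF3 bridges mRNA and ribosome, and eIF1, eIF1A, eIF5 and eIF5B act in start codon selection and in joining of the ribosomal subunits. In colon carcinoma and other tumours, several of these genes are targets of the MYC protein, which binds the E-box CACGTG. The arrays measured transcript levels and not the phosphorylation of eIF2.

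Promoter sequences of the members were read from the RefSeq windows of build GRCh38.p14, which run from 250 bases before to 50 bases after each annotated start. A window was found for 42 of the 49 members, and EIF2AK1, EIF2S2, EIF3A, EIF3E, EIF3G, EIF3H and EIF3L had none. The stretches below are shown because they hold the E-box in members that moved in opposite directions, with CACGTG in capitals, and because EIF2AK2, the member with the largest difference, holds a match to the core of the interferon-stimulated response element (GAAANNGAA, in capitals) across its annotated start. The E-box stretches lie before the annotated starts of EIF2B3 (chr1:44986742-44986801, minus strand), EIF4E (chr4:98929173-98929232, minus), EIF4G1 (chr3:184314512-184314571, plus), EIF4B (chr12:53006396-53006455, plus) and EIF1B (chr3:40309626-40309685, plus), and the EIF2AK2 stretch is chr2:37156968-37156997 on the minus strand.
EIF2B3: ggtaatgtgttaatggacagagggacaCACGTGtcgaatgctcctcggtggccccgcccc
EIF4E: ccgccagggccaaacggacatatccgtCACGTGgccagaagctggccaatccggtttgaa
EIF4G1: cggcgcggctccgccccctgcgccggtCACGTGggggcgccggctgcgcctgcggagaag
EIF4B: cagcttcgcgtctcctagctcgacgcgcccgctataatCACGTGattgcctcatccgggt
EIF1B: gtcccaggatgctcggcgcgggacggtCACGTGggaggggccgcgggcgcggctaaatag
EIF2AK2: gagtccaagggGAAAACGAAactgagaacc

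Of the 45 members tested, 8 were higher and 23 were lower in spheroids (limma, adjusted p below 0.05), and 14 did not pass the test. Among all 8721 genes tested, 19.0% were higher and 20.6% were lower. The share of members called higher was thus close to that of all genes, and the share called lower, 51.1%, was above it. The median standard error of a difference was 0.14 for members and 0.19 for all genes. A difference of the same size was therefore called more readily in members. The median log2 difference, spheroids minus monolayer, was -0.37 over the tested members and -0.03 over all genes. Above a mean of 600 units, 7 members were higher and 23 lower, with a median of -0.37. Of all 6768 genes above 600 units, 1312 were higher and 1701 lower, with a median of -0.08. Without probe sets whose sequences may be shared between transcripts (IDs ending in _x_at or _s_at), 33 members were tested, of which 8 were higher and 11 lower, and their median was -0.19. Of all 6094 genes tested in this setting, 1118 were higher and 1114 lower, with a median of -0.011. The excess of lower members was smaller there. Both spheroid arrays lay below both monolayer arrays for 28 members (62.2%, against 36.6% of all genes) and above them for 13 (28.9%, against 33.4%). Groups that did not overlap were thus common among all genes. These shares of all genes stand beside every count of called or non-overlapping genes below. The median log2 signal of the tested members was 12.98 and 12.97 in the monolayer arrays and 12.64 and 12.46 in the spheroid arrays. The groups of members differed in direction. Called lower were 4 of 5 eIF2B subunits, both eIF4G scaffolds and 5 of 7 genes grouped under start codon selection and subunit joining. The eIF2 kinases included the largest increases, and eIF3 was divided.

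**Figure D1:**
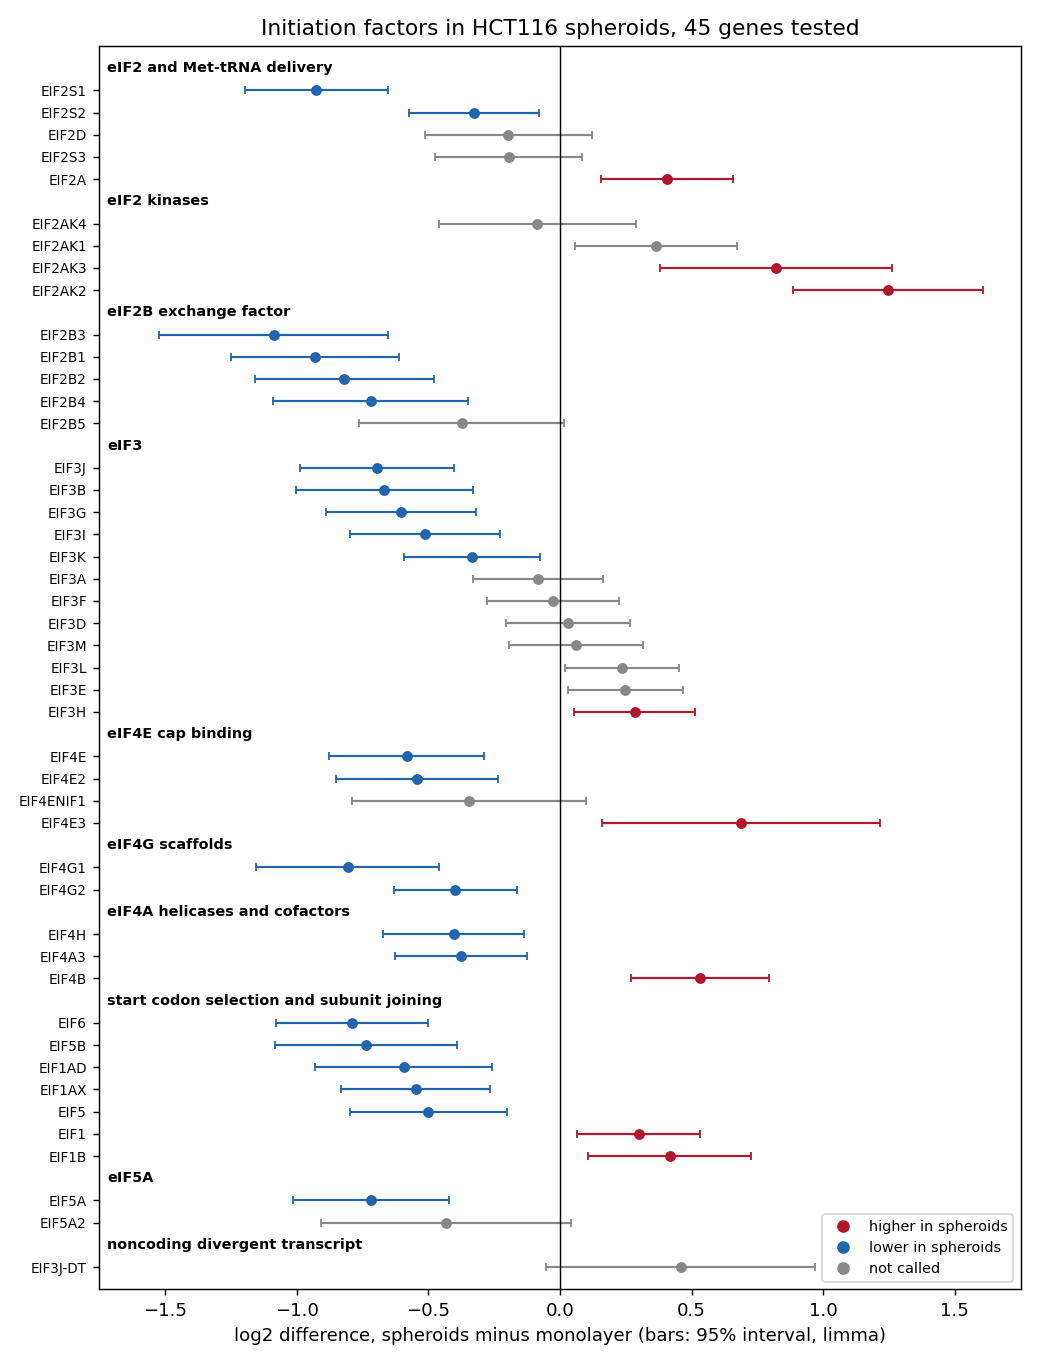
Log2 difference between spheroids and monolayer (x axis) for the 45 tested members, grouped by role, on the deposited scaling; points are limma estimates, bars 95% intervals, red is higher, blue lower and grey not called. The 8 members called higher are spread over 6 role groups, while all 5 eIF2B subunits lie left of 0; with spike-in scaling, 7 of the 8 red points fall below 0.

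The direction of the higher members depended on the scaling of the arrays. The deposited values set the mean of every array equal. Bacterial RNAs spiked in as controls were 1.82-fold brighter on the spheroid arrays, and also differed 1.47-fold between the 2 spheroid arrays. Scaling the arrays to them moved the median of all genes to -0.87 and that of the members to -1.21. The members then lay 0.35 below the median of all genes, as against 0.34 below it on the deposited scaling. With this scaling 0 members were called higher (0 also at an unadjusted p below 0.05) and 31 lower, where 2.10% and 45.8% of all genes were called higher and lower. The sign turned in 7 of the 8 higher members, and EIF2AK2 remained above 0 with a log2 difference of 0.40 (adjusted p = 0.408). Each difference below is given on the deposited scaling, relative to the mean of the array. How much mRNA each culture held was not tested.

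**Figure D2:**
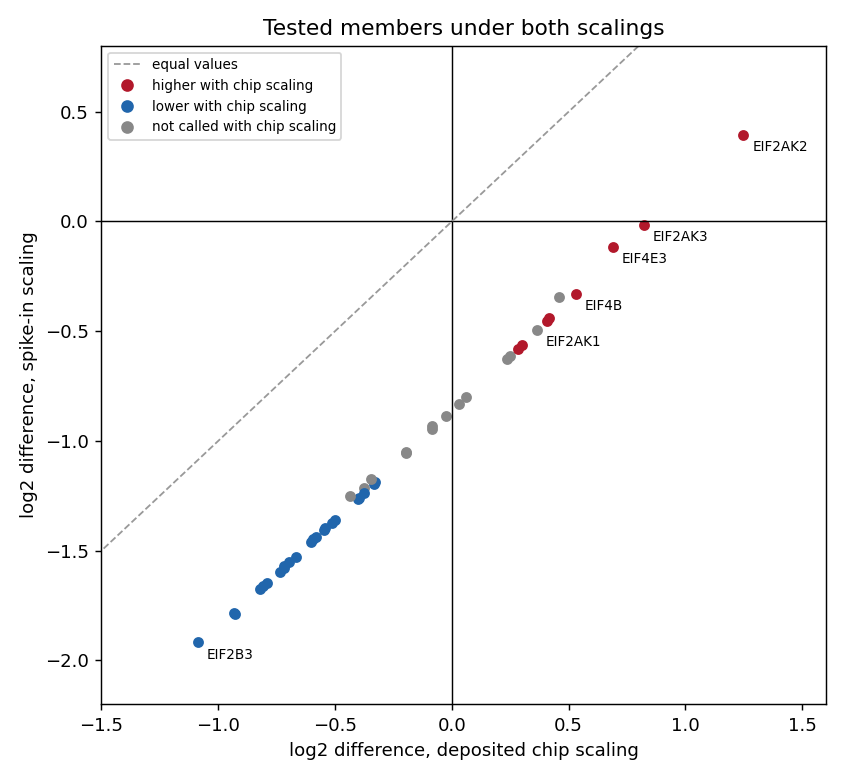
Log2 difference of each tested member on the deposited chip scaling (x axis) against the same with spike-in scaling (y axis); colours give the call on the chip scaling and the dashed line marks equal values. All points lie below the dashed line by a similar amount, and EIF2AK2 is the one member above 0 on the y axis, at 0.40.

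The eIF2 kinases held the 2 largest increases among the members, EIF2AK2 and EIF2AK3, while EIF2AK4 gave nearly the same signal in both growth forms. Of the 4 kinases, 2 were higher and 0 lower (3 and 0 at an unadjusted p below 0.05). PKR, encoded by EIF2AK2, is activated by double-stranded RNA and is itself induced by interferon. Its signal was 1893 and 1478 in the monolayer arrays and 3979 and 4055 in the spheroid arrays. Both spheroid arrays were more than 2-fold above both monolayer arrays, the groups did not overlap, and the log2 difference was 1.25 ± 0.17 (SE, n = 2 arrays per group, adjusted p = 0.000127). The second EIF2AK2 probe set above 300 units was also higher, by 1.09. PERK, encoded by EIF2AK3, spans the membrane of the endoplasmic reticulum and responds to unfolded proteins there. EIF2AK3 signals were 880 and 728 in monolayer and 1263 and 1639 in spheroids. The spheroid arrays were again both higher, though they differed from each other by more than the monolayer arrays did, and the log2 difference was 0.82 ± 0.20 (adjusted p = 0.00689). Without spheroids replicate 2 it was 0.64 and was not called (adjusted p = 0.0610), and with spike-in scaling it was -0.015.

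HRI, encoded by EIF2AK1, is regulated by haem and relays mitochondrial stress. EIF2AK1 gave 4441 and 4373 in monolayer and 6201 and 5207 in spheroids. The groups did not overlap, but the log2 difference of 0.36 ± 0.14 (95% interval 0.06 to 0.67) missed the threshold (adjusted p = 0.0588), and a second probe set gave -0.35. Without spheroids replicate 2 EIF2AK1 was called, at 0.49. GCN2, encoded by EIF2AK4, senses uncharged tRNA when amino acids are short. EIF2AK4 signals were 1788 and 1581 in monolayer and 1681 and 1490 in spheroids, and the ranges overlapped. The log2 difference was -0.09, with a 95% interval of -0.46 to 0.29.

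The subunits of eIF2, the substrate of these kinases, were called lower in 2 of 3 cases. EIF2S1, the α subunit that carries the phosphorylation site, gave 14241 and 16814 in monolayer and 8223 and 8035 in spheroids. The signal in spheroids was 1.90-fold lower, with no overlap (log2 difference -0.93 ± 0.13, adjusted p = 0.000141), and the 3 EIF2S1 probe sets ranged from -0.93 to -0.46. Without shared probe sets EIF2S1 was at -0.49 (adjusted p = 0.0410). The β subunit gene EIF2S2 gave 20028 and 22825 in monolayer and 17467 and 16613 in spheroids. EIF2S2 was called lower by a smaller margin (-0.33 ± 0.11, adjusted p = 0.0370), and the call was lost without monolayer replicate 2 (-0.23), without spheroids replicate 1 (-0.36) or without spheroids replicate 2 (-0.29). For the γ subunit gene EIF2S3, which binds GTP and the tRNA, the signals were 11502 and 9683 in monolayer and 9404 and 9042 in spheroids. Both spheroid arrays were below both monolayer arrays, but the log2 difference of -0.19 (95% interval -0.47 to 0.09) did not pass the test.

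Outside the eIF2 trimer, EIF2A, which can deliver initiator tRNA independently of GTP, was higher by 0.41 ± 0.11 (adjusted p = 0.0141). The EIF2A call was lost without spheroids replicate 1 (0.35), and with spike-in scaling the sign turned (-0.45). EIF2D, which acts in non-canonical initiation and ribosome recycling, was not called (-0.20).

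The exchange factor eIF2B was lower in most of its subunits. Its 5 subunits all gave lower signals on both spheroid arrays than on both monolayer arrays, as did 36.6% of all genes tested. Of the 5, 4 were called lower, against 20.6% of all genes, and the median log2 difference was -0.82. None was called higher in the limma fit, nor at an unadjusted p below 0.05 (0 of 5). EIF2B1, EIF2B2 and EIF2B4 encode the α, β and δ subunits of the regulatory core that binds phosphorylated eIF2. EIF2B1 gave 4537 and 4306 in monolayer and 2216 and 2395 in spheroids. EIF2B2 gave 3845 and 4702 against 2347 and 2446. EIF2B4 gave 3019 and 2530 against 1814 and 1529. In each case the lowest monolayer value was well above the highest spheroid value, and the log2 differences were -0.93 ± 0.15, -0.82 ± 0.16 and -0.72 ± 0.17 (adjusted p = 0.000407, 0.00140 and 0.00556). EIF2B4 had a second probe set above 300 units, which was lower by 0.83, and both are shared probe sets.

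The γ and ε subunits, EIF2B3 and EIF2B5, form the catalytic part of eIF2B. EIF2B3 gave 1443 and 1624 in monolayer and 616 and 802 in spheroids. This was the largest decrease among the members, 2.13-fold, with a log2 difference of -1.09 ± 0.20 (adjusted p = 0.00112). EIF2B5, which holds the catalytic domain, gave 1427 and 1592 against 1094 and 1221. The EIF2B5 arrays did not overlap, but the log2 difference of -0.37 (95% interval -0.76 to 0.01) did not pass the test. The calls of EIF2B1, EIF2B2, EIF2B3 and EIF2B4 held when any 1 array was left out.

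**Figure D3:**
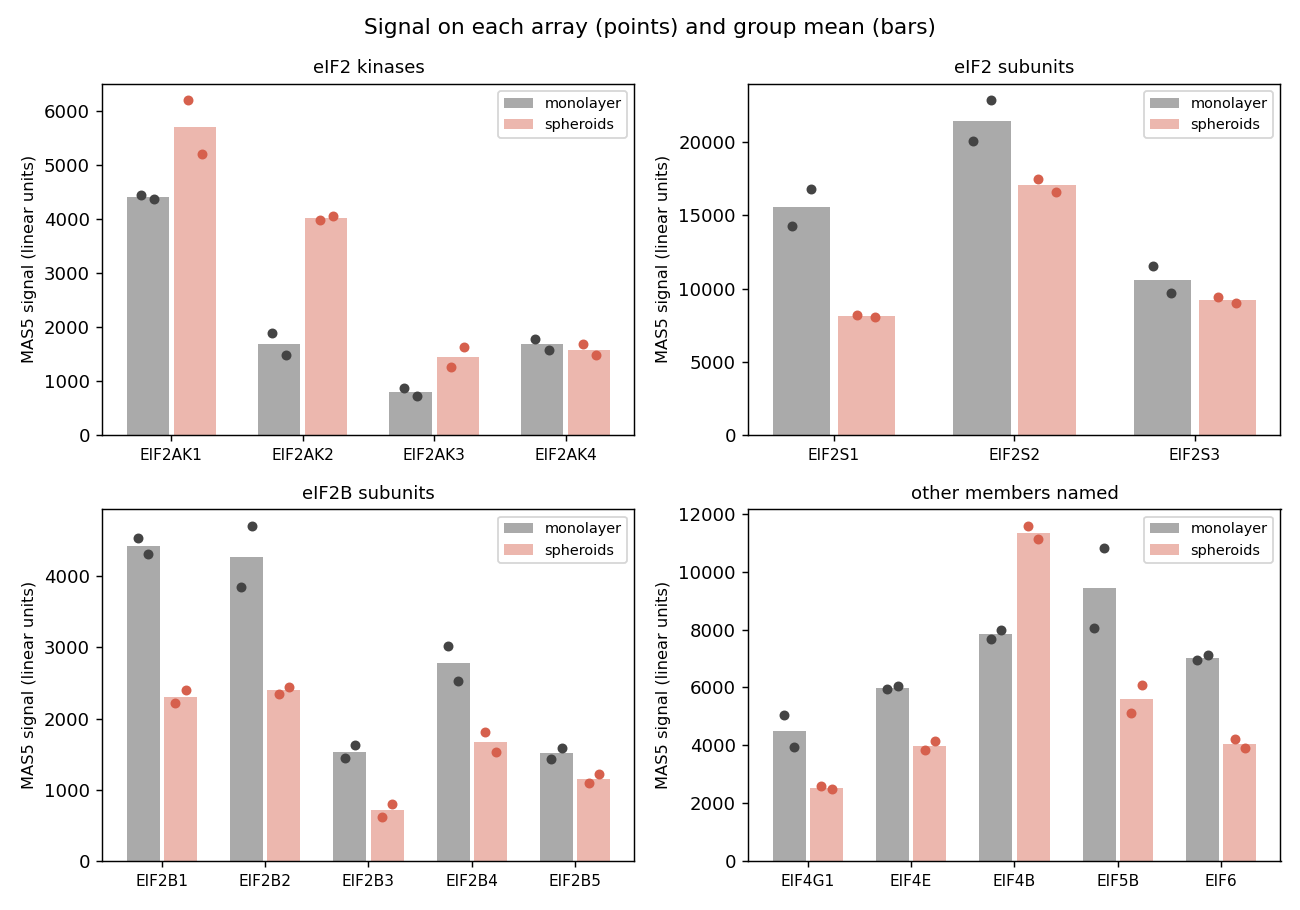
MAS5 signal in linear units (y axis, from 0) on each array (points) and the mean of each group (bars) for the eIF2 kinases, the eIF2 and eIF2B subunits and 5 other members; levels of different genes come from different probe sets and are not to be compared. EIF2AK2, EIF2AK3 and EIF4B are higher in spheroids on the deposited scaling, of which EIF2AK3 and EIF4B fall below 0 with spike-in scaling, and the points of the 5 eIF2B subunits do not overlap between groups, 4 of them called lower and EIF2B5 not called. Of all genes tested, 36.6% had both spheroid arrays below both monolayer arrays.

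The factors that recruit mRNA were mostly lower. EIF4G1, the main scaffold that joins eIF4E, eIF4A and eIF3, gave 5041 and 3943 in monolayer and 2590 and 2482 in spheroids. The log2 difference was -0.81 ± 0.16 (adjusted p = 0.00181), with the spheroid arrays close together and both below the monolayer range. EIF4G1 had a second probe set, which gave -0.50 and was not called, and both are shared probe sets. Its relative EIF4G2 (DAP5), which lacks the eIF4E binding site and serves cap-independent initiation, was lower by a smaller amount (-0.40 ± 0.11, adjusted p = 0.0116), and the call was lost without spheroids replicate 1 (-0.32). EIF4E, the cap-binding protein, gave 5928 and 6032 in monolayer and 3839 and 4135 in spheroids and was also lower (-0.58 ± 0.14, adjusted p = 0.00484). The other EIF4E probe sets gave values down to -0.16 and were not called, and without shared probe sets EIF4E was not called. EIF4E2, a cap-binding homologue linked to translational repression and to translation in hypoxia, was lower (-0.54 ± 0.14), but not without spheroids replicate 2 (-0.48, adjusted p = 0.0541) or without shared probe sets (-0.37, adjusted p = 0.285).

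EIF4E3, the third member of the eIF4E family, was the exception, at 0.69 ± 0.24 (adjusted p = 0.0400). EIF4E3 was dim, at 412 and 297 in monolayer and 592 and 576 in spheroids, and its call was lost without monolayer replicate 2 (0.47), without spheroids replicate 1 (0.67) or without spheroids replicate 2 (0.71). With spike-in scaling EIF4E3 was at -0.12. EIF4ENIF1, which carries eIF4E into the nucleus and into processing bodies, was not called (-0.35).

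Of the helicase group, EIF4B, an RNA-binding cofactor that stimulates eIF4A, was higher in spheroids. It gave 7678 and 7998 in monolayer and 11575 and 11117 in spheroids. The groups were far apart relative to their spread (0.53 ± 0.12, adjusted p = 0.00411), all 3 EIF4B probe sets were called higher, up to 0.92, and the call held without any 1 array, but with spike-in scaling the sign turned (-0.33). EIF4H, a second cofactor of eIF4A, was lower (-0.40 ± 0.12, adjusted p = 0.0211), and was not called without monolayer replicate 1 (-0.38) or spheroids replicate 2 (-0.33). EIF4A3, the helicase homologue of the exon junction complex, was lower by 0.37, and was called without monolayer replicate 1 (-0.46) but not without any of the other 3 arrays (-0.40 to -0.29). The main probe sets of EIF4A1 and EIF4A2 are assigned to several genes in the array annotation and are not used here.

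The eIF3 complex did not move as a unit. Of 12 subunit genes tested, 5 were lower, 1 was higher and 6 did not pass the test, and the median lay at -0.05. The subunits b, g and i, which form a peripheral module around the mRNA entry side of the ribosome, were all called lower: EIF3B by -0.67 ± 0.16, EIF3G by -0.60 ± 0.13 and EIF3I by -0.51 ± 0.13 (adjusted p = 0.00476, 0.00324 and 0.00834). The 3 EIF3B probe sets were all called lower, and all are shared probe sets. EIF3J, the loosely bound subunit, was lower as well (-0.70 ± 0.13, adjusted p = 0.00155). Its second probe set gave -0.50 and was not called, and both EIF3J probe sets are shared. Without spheroids replicate 2, EIF3B (-0.50) and EIF3I (-0.49) were not called, and neither was EIF3I without monolayer replicate 2 (-0.36).

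The octamer of PCI and MPN domain subunits, the structural core of eIF3, showed smaller differences. Of its 8 genes 7 were tested, with log2 differences from -0.34 to 0.28 and a median of 0.06, and 1 was called higher, 1 lower and 5 not. This division of eIF3 into modules was chosen after the values were seen. EIF3H was higher (0.28, adjusted p = 0.0486) and EIF3K lower (-0.34, adjusted p = 0.0412), both close to the threshold. The 3 EIF3K probe sets, all shared, ranged from -0.55 to -0.34 and 2 of them were called lower. The second EIF3H probe set gave 0.016. With the mean of probe sets EIF3H was at 0.15 and was not called (adjusted p = 0.460). In that setting EIF3K was at -0.43 and was called lower (adjusted p = 0.0145). With 1 array left out, both were called without monolayer replicate 2 (0.33 and -0.43), but not without any of the other 3 arrays (0.24 to 0.29 for EIF3H and -0.37 to -0.24 for EIF3K). With spike-in scaling EIF3H was at -0.58. EIF3E and EIF3L lay at 0.25 and 0.24 (adjusted p = 0.0692 and 0.0770), and EIF3A, EIF3F and EIF3M were at -0.08, -0.02 and 0.06. EIF3D, the subunit with a cap-binding function of its own on selected mRNAs, lay outside the octamer at 0.03 (95% interval -0.21 to 0.27). Of the octamer, EIF3C was not tested, as its probe set with 1 symbol had a mean of 276 units.

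Start codon selection and subunit joining was a group in which all 7 tested genes were called, 5 lower and 2 higher. EIF6, which keeps the large ribosomal subunit from joining too early and is needed to make it, gave 6931 and 7124 in monolayer and 4213 and 3894 in spheroids. The log2 difference of EIF6 was -0.79 ± 0.13 (adjusted p = 0.000650), with no overlap. The only probe set of EIF6 is a shared one. EIF5B, the GTPase that joins the subunits, gave 8052 and 10802 against 5120 and 6087. The monolayer arrays of EIF5B differed from each other, but both exceeded the spheroid arrays (-0.74 ± 0.16, adjusted p = 0.00305), and 4 of its 5 probe sets were called lower. EIF1AX, which scans for the start codon with eIF1, was lower by 0.55 (adjusted p = 0.00555). EIF1AD, grouped here but named only for a domain like that of eIF1A, was lower by 0.59 (adjusted p = 0.00920). EIF1AD was not called without monolayer replicate 2 (-0.54) or with the mean of its probe sets (-0.40).

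EIF5, the GTPase activator of eIF2, was lower by its brightest probe set (-0.50 ± 0.14, adjusted p = 0.0123). Its 5 probe sets ranged from -1.07 to 0.60, of which 3 were called lower and none higher, and the EIF5 call was lost without monolayer replicate 2 (-0.30) or spheroids replicate 1 (-0.47). Without shared probe sets EIF5 was at 0.60 and was not called (adjusted p = 0.110). The higher genes of this group were EIF1, which guards start codon fidelity, and its close homologue EIF1B. EIF1 was higher by 0.30 (adjusted p = 0.0436), and its 7 probe sets ranged from 0.02 to 1.65. When all probe sets were tested, 1 of the 7 was called, the one at 1.65. That probe set gives the value of EIF1 without shared probe sets and was dim, at 203 and 338 in monolayer and 853 and 940 in spheroids. EIF1B was higher by 0.42 (adjusted p = 0.0347). Leaving out 1 array ended the EIF1 call in 3 of 4 fits (0.16 without monolayer replicate 1, 0.29 without spheroids replicate 1 and 0.30 without spheroids replicate 2). It ended the EIF1B call in 3 of 4 fits as well (0.26 without monolayer replicate 2, 0.40 without spheroids replicate 1 and 0.44 without spheroids replicate 2). With spike-in scaling, EIF1 and EIF1B had a negative sign (-0.56 and -0.44). EIF1AY, the remaining gene of the group, was below the signal minimum.

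EIF5A, which carries the modified lysine hypusine and relieves ribosomes stalled at proline runs, was lower in spheroids by all 3 of its probe sets, all of them shared. The brightest gave 16654 and 21828 in monolayer and 11186 and 11957 in spheroids, with no overlap. Its log2 difference was -0.72 ± 0.14 (adjusted p = 0.00136), and the 3 ranged from -0.85 to -0.55. Its homologue EIF5A2 was dim and was not called (-0.43, 95% interval -0.91 to 0.04).

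Several probe sets of a gene gave a check on single probes. Of the 91 member probe sets above 300 units, 9 were called higher (9.89%, against 16.8% of 14162 probe sets in all) and 37 lower (40.7%, against 17.2%). Among the 24 members with several such probe sets, 0 had probe sets called in opposite directions (limma, adjusted p below 0.05). In 19 of them every probe set had the same sign, and EIF2AK1, EIF2S3, EIF3A, EIF5 and EIF5A2 had both signs. Every probe set was called in the same direction for EIF2AK2 and EIF4B, which were higher, and for EIF2B4, EIF3B and EIF5A, which were lower. All probe sets of EIF2B4, EIF3B and EIF5A are of the shared kind (IDs ending in _x_at or _s_at). These genes could not be tested without shared probe sets, so the agreement of their probe sets is a weaker check.

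**Figure D4:**
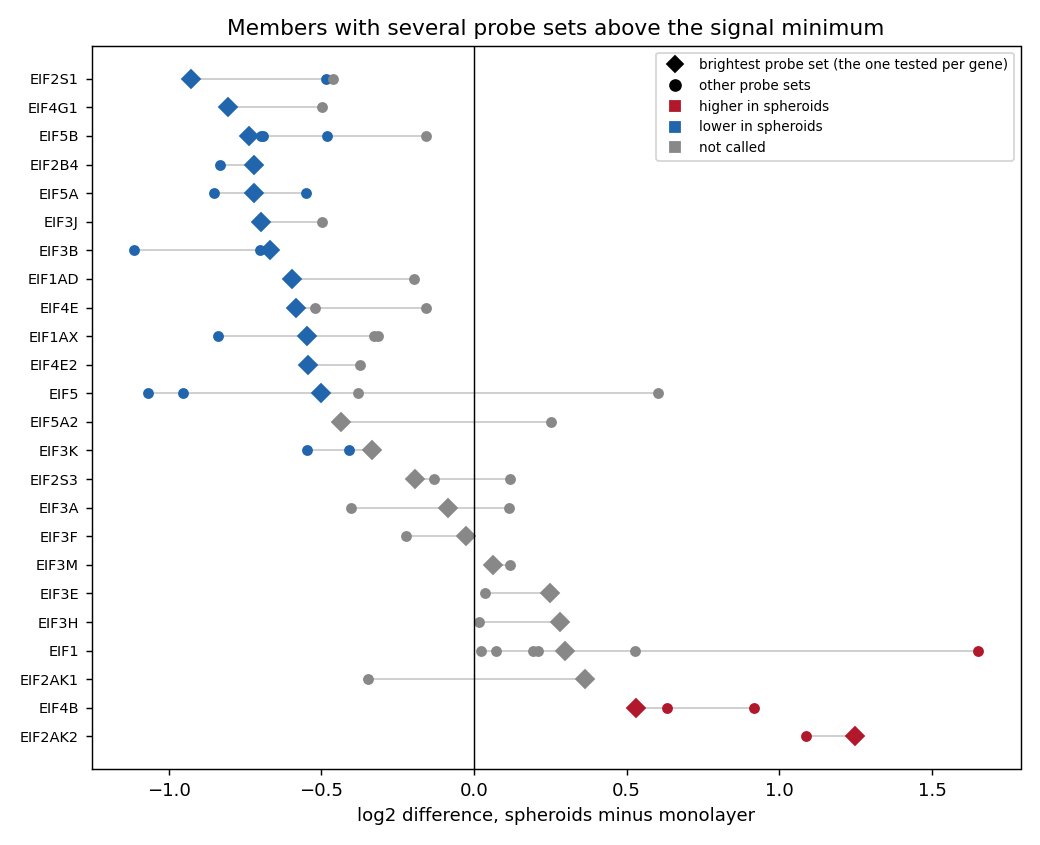
Log2 difference (x axis) of every probe set above 300 units for the 24 members that had several; diamonds mark the brightest probe set, which represents the gene, and colours give the call adjusted over all 14162 probe sets. EIF2AK2 and EIF4B are red throughout, while EIF5 spans -1.07 to 0.60; with spike-in scaling the EIF4B gene value is -0.33.

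In all, 15 of the 31 called members kept their call whichever array was left out. These were EIF2AK2 and EIF4B among the higher members, and EIF1AX, EIF2B1, EIF2B2, EIF2B3, EIF2B4, EIF2S1, EIF3G, EIF3J, EIF4E, EIF4G1, EIF5A, EIF5B and EIF6 among the lower. The other 16 lost it without at least 1 array. Each of these fits left 1 group with a single array, which was assumed to vary like the pair of the other group, so they describe how far a call rests on 1 array and add no independent support.

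The E-box CACGTG, a palindrome that reads the same on both strands, was found in the windows of 11 of the 42 members (26.2%), against 13.6% of the 7318 tested genes with a window. The 42 include members below the signal minimum, such as EIF3C and EIF2AK3-DT, while the 7318 do not, here and for the motifs below. Of the 11 members with the E-box, 3 were higher, 6 lower and 2 not called. EIF2B3, EIF4E and EIF4G1, which were lower, carried the same 6 letters as EIF4B and EIF1B, as the stretches above show. EIF4B and EIF1B were higher on the deposited scaling and negative with spike-in scaling. EIF2AK2, the remaining higher member, carried the E-box at -181 from its annotated start, outside the stretch shown. EIF2AK2 was at 0.40 with spike-in scaling. The match to GAAANNGAA was found on either strand in 8 members (19%, against 8.35% of tested genes). Of these 8, 3 were higher, 3 lower, 1 not called and 1 not tested. The higher were EIF2A, EIF2AK2 and EIF4B, and the lower EIF3K, EIF4A3 and EIF6. In EIF2AK2 the match began 6 bases before the annotated start. The other motifs searched on both strands were CCGGAAG of the ETS factors (28.6% of members and 25.2% of tested genes), GCATGCGC of NRF1 (4.76% and 7.08%), TGACGTCA of the cyclic AMP response element (0 members and 4.1% of tested genes), TGATGNAA of ATF4 (2.38% and 2.65%) and TTTNGCGC of E2F (2.38% and 3.87%). The TGATGNAA match was in EIF4E3, a higher member on the deposited scaling. The windows of EIF2AK3 and EIF2AK3-DT overlap, and they share an ETS match that is counted for both. No binding was measured.

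Other genes of translation gave a mixed picture. Among 25 tested partners and inhibitors of initiation, 4 were higher and 5 lower (16% and 20%, against 19.0% and 20.6% of all genes). Both shares were thus close to those of all genes, and so was the median log2 difference of -0.04. MKNK2, the kinase MNK2 that phosphorylates eIF4E, gave 7752 and 7271 in monolayer and 37207 and 27780 in spheroids. Both MKNK2 spheroid arrays were several-fold above the monolayer arrays (2.09 ± 0.14, adjusted p = 5.62e-07). PPP1R15A (GADD34), which directs the phosphatase that removes phosphate from eIF2, gave 399 and 404 against 1310 and 888. PPP1R15A was higher by 1.36 ± 0.23 (adjusted p = 0.000698), with no overlap. With spike-in scaling MKNK2 was at 1.23 and was the 1 partner still called higher. GCN1, the activator of GCN2, was lower by 0.70 ± 0.18 (adjusted p = 0.00948), but was not called without spheroids replicate 1 (-0.43). MCTS1, which with DENR promotes reinitiation, was lower by 0.65 ± 0.13 (adjusted p = 0.00181). The other called genes were DNAJC3, an inhibitor of PERK and PKR, at 0.53, CYFIP1, an eIF4E-binding repressor, at 0.45, the helicase DHX29 at -0.64, the recycling factor ABCE1 at -0.59 and BZW2, a mimic of eIF5, at -0.55. Of these 5, BZW2 kept its call whichever array was left out. DNAJC3 lost it without monolayer replicate 2 (0.47) or spheroids replicate 1 (0.46), and CYFIP1 without monolayer replicate 1 (0.37) or spheroids replicate 2 (0.43). DHX29 and ABCE1 lost it without monolayer replicate 2 (-0.52 and -0.45) or spheroids replicate 1 (-0.46 and -0.49). The eIF4E binding proteins, which hold eIF4E away from eIF4G and whose names the rule leaves out, were not called. EIF4EBP1 gave 2112 and 1944 against 2580 and 1815, which overlapped, and the log2 difference was 0.09 (95% interval -0.31 to 0.50). EIF4EBP2 gave 867 and 888 against 986 and 1100, a log2 difference of 0.24 (95% interval -0.17 to 0.65). EIF4EBP3 had no probe set with its symbol alone.

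Of 12 elongation and termination factors tested, 0 were higher (1 at an unadjusted p below 0.05) and 2 were lower, with a median of -0.12. The share called lower, 16.7%, was near the 20.6% of all genes, and 19.0% of all genes were higher. ETF1, the factor that reads stop codons, gave 10577 and 12492 in monolayer and 5136 and 6441 in spheroids. The log2 difference of ETF1 was -0.99 ± 0.15 (adjusted p = 0.000253). DOHH, which completes the hypusine of eIF5A, was lower by 1.43 ± 0.30 (559 and 565 against 260 and 135, adjusted p = 0.00241). DOHH was dim, and its mean of 380 units passed the minimum of 300 through the monolayer arrays alone. A gene admitted in this way could only come out lower. Elongation and termination factors called lower numbered 1 above a mean of 600 units and 2 without a signal filter. DHPS, which starts the hypusine, was not called (0.33, adjusted p = 0.143). Of 8 mitochondrial translation factors tested, 3 were lower and 1 higher (37.5% and 12.5%, against 20.6% and 19.0% of all genes), with a median of -0.36. TSFM (-0.74), MTIF2 (-0.68) and TUFM (-0.66) were lower, TUFM not without spheroids replicate 2 (-0.41), and MTIF3 was higher (0.79), though not without monolayer replicate 1 (0.57) and not with spike-in scaling (-0.046).

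Measures of array quality differed between the groups without overlap. The share of probe sets above 300 units was 27.5% to 28.4% in monolayer and 29.8% to 30% in spheroids. Correlation of log2 signals was 0.984 between the monolayer arrays, 0.979 between the spheroid arrays and 0.889 to 0.902 between groups. The ratio of 3′ to 5′ signal of ACTB, a measure of RNA integrity, was 2.34 to 2.64 in monolayer and 2.82 to 3 in spheroids, and that of GAPDH 1.02 to 1.07 and 0.921 to 0.931. The proliferation marker MKI67 was lower by 1.27 and TOP2A by 1.04, so both moved with the lower members. The summed level of all 8 epithelial markers was 80622 to 88363 in monolayer and 91409 to 95234 in spheroids. Of the 5 above 300 units, CDH1 (1.73) and KRT19 (0.79) were higher in spheroids, and EPCAM (0.02), KRT18 (-0.11) and KRT8 (-0.49, adjusted p = 0.0534) were not called, while the intestinal markers CDX1, CDX2 and VIL1 were below 300 units. None of 3 leukocyte and 3 endothelial markers was above 300 units. Of 5 fibroblast markers, COL1A1 alone was, at 869 and 658 in monolayer and 2222 and 2659 in spheroids. The part of these in the differences between the cultures was not tested.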

How the data were processed

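Biotin-labelled cRNA from the total RNA of 4 HCT116 cultures was run on Affymetrix Genome U133 Plus 2.0 arrays of 1 colour. Values are the MAS5 signal intensity of each probe set on a linear scale, as deposited by the authors. Neither the version of MAS5 nor a genome build is stated in the sources used here. The trimmed mean signal was 499.9 on every array. The number of arrays limits the precision.

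Of 54675 probe sets, 41091 with 1 gene symbol in the platform annotation were used. The 10 probe sets naming an EIF symbol beside others were not. Log2(signal + 32) of probe sets with a mean above 300 was fitted with limma 3.58.1 (R 4.3.3; lmFit, eBayes with intensity trend; 2 residual and 10.5 prior degrees of freedom; two-sided), with Benjamini-Hochberg adjustment over 8721 genes. The added constant understates changes of dim genes.

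Members and lists were chosen with earlier results of these data known. Values of every array are given for the 10 called members with the largest differences, the eIF2 kinases and EIF2S1, EIF2S2 and EIF2S3, and differences for up to 4 called genes of each other list and the eIF4E binding proteins. Other genes given in full were chosen after their values were seen. Motifs were searched with Python 3.11.15.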

Additional observations from a re-analysis of the deposited data

How the results depend on the processing

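With 2 arrays per group, signal over background and the spread between cultures limit small differences: an unspiked control gave 4.47 to 35 units. A lower or a higher added constant changed no call of the 45 members. Members called higher numbered 3 without a signal filter, 4 without the intensity trend, 0 with spike-in scaling and 0 with the methods' t-test, which they name for other assays and not for the arrays, on log2 values (5 at an unadjusted p below 0.05), and 3 to 8 when 1 array was left out. Members called lower numbered 17 without a signal filter, 16 without the intensity trend, 19 with quantile normalization and 31 with spike-in scaling. They numbered 11 without shared probe sets (IDs ending in _x_at or _s_at), where fewer members were tested. With the methods' t-test they numbered 0 (13 unadjusted), and it called 1 gene higher and 1 lower of all 8721. The number of all genes called changed with the setting as well. Higher were 1336 of 19775 genes without a signal filter and 1521 of 8721 without the intensity trend, and lower 1318 and 1526. With quantile normalization 1782 of 8721 genes were lower, and with spike-in scaling 3996. Without shared probe sets, 1118 of 6094 genes were higher and 1114 lower. The median of the members was -1.21 with spike-in scaling and -0.19 without shared probe sets, where that of all genes was -0.87 and -0.011. Partners of initiation called higher numbered 1 with spike-in scaling and 0 with the methods' t-test, and those called lower 13 and 0, with 2 to 6 when 1 array was left out. Elongation and termination factors called higher numbered 2 with the mean of probe sets, 2 without shared probe sets and 0 to 2 when 1 array was left out. Those called lower numbered 1 above 600 units, 1 without shared probe sets, 6 with spike-in scaling and 0 with the methods' t-test. Mitochondrial factors called higher numbered 0 with spike-in scaling, without shared probe sets and with the methods' t-test, and 0 to 1 when 1 array was left out, and those called lower 7 with spike-in scaling and 0 with the methods' t-test. The replicate numbers do not count as pairing, as there are 2 pairs (correlation of deviations 0.323). With a replicate block, 11 members were higher and 24 lower, and 2 elongation and termination factors higher and 4 lower. The sign turned with spike-in scaling for EIF1 (-0.56), EIF1B (-0.44), EIF2A (-0.45), EIF2AK1 (-0.49), EIF2AK3 (-0.015), EIF3D (-0.83), EIF3E (-0.61), EIF3H (-0.58), EIF3J-DT (-0.34), EIF3L (-0.63), EIF3M (-0.80), EIF4B (-0.33), EIF4E3 (-0.12), EIF4EBP1 (-0.76), EIF4EBP2 (-0.59) and MTIF3 (-0.046). It turned with quantile normalization for EIF3A (0.000594) and EIF3F (0.076), without shared probe sets for EIF3A (0.11) and EIF5 (0.60), and with the mean of probe sets for EIF4EBP2 (-0.030). With 1 array left out, EIF2AK4 ranged from -0.17 to 0.0011, EIF3A from -0.17 to 0.0050, EIF3F from -0.14 to 0.087, EIF3M from -0.078 to 0.20 and EIF4EBP1 from -0.16 to 0.34. The causes were not tested, other than that fewer samples or genes enter some of these fits.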

Other observations

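EIF2AK3-DT and EIF3J-DT are noncoding RNAs transcribed away from the start of a neighbouring initiation gene. The divergent transcript of EIF2AK3 had a mean of 88.5 units and was not tested. It gave 33.6 and 40.9 in the monolayer arrays and 188 and 92.0 in the spheroid arrays, and the monolayer values were near the level of an unspiked control (4.47 to 35 units). EIF3J-DT gave 364 and 335 in monolayer and 516 and 468 in spheroids. Its log2 difference was 0.46 (95% interval -0.05 to 0.97) and was not called, while EIF3J was lower by 0.70. The single-symbol probe set of EIF4A2 had a mean of 44.6 units and was not tested.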
